A study of Mus musculus with 2 samples.

Results

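Integrins, laminins and nidogens are the receptors and scaffold proteins through which epithelial and endothelial cells hold on to a basement membrane. The genes were taken by symbol from the mouse GENCODE M21 annotation, as every integrin alpha or beta subunit, laminin chain or nidogen gene whose symbol fits the standard family names. This gave 39 genes of the 54438 whose transcripts are listed in the deposited tables: 18 integrin alpha subunits, 8 integrin beta subunits, 11 laminin chains and 2 nidogens, with 209 listed transcripts. Their values were compared between 2 RNA libraries, titled W1 and W2. By the labels, both were made from flow-sorted basal cells of the mammary gland, its outer epithelial layer, with C57BL/6 wild type mice aged 8 weeks as the source and no treatment named. The series sets Pd-l1 positive beside Pd-l1 negative basal cells, but nothing in the labels says which library is which. Both libraries therefore stand in no group, no value was used to place them, and no difference below is one between Pd-l1 classes. There is 1 library of each title, so there is no replicate, no test and no p-value. How many mice or cells were used, and which antibodies and gates, was not stated in what was read for this work.

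Each integrin is a pair of 1 alpha and 1 beta subunit, and the pair sets what the cell can bind. Laminins are cross-shaped trimers of an alpha, a beta and a gamma chain, and nidogens link the laminin network to the collagen network of the basement membrane. In the mammary gland, basal cells lie directly on this sheet, and integrins that contain the products of Itga3, Itga6, Itgb1 and Itgb4 are the known laminin receptors of those cells. Endothelial cells lie on a basement membrane of their own, in which the laminin alpha chains made from Lama4 and Lama5 are the characteristic ones.

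The 2 libraries differed in which cell types their transcripts mark, and the library labels describe only one of these types. Of 9 markers of basal and myoepithelial cells, 4 had reads in W1, with a sum of 6.62 TPM (transcripts per unit of a total that is the same in both libraries), and 8 had reads in W2, with 33445 TPM. The basal markers Krt5, Cnn1, Myh11 and Cdh3 had 0 reads in W1, and Trp63 had 0 in both libraries. Of 12 endothelial markers, 12 had reads in W1 (4929 TPM in sum) and 3 in W2 (7.14 TPM), where Cdh5, Kdr, Flt1, Cldn5 and Pecam1 were at 0. Library W1 thus goes against its label, and W1 and W2 below mean only the libraries with these titles. In sequencing of pooled cells, fewer cells of a type and less RNA per cell cannot be told apart. The deposited values allow counted reads to be recovered: 3055840 in W1 and 3800036 in W2. Intervals are exact intervals at 95% on these reads. They cover counting error only, because no molecular identifiers are named in the labels.

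The reads of a gene varied with how much of its sequence is found in no other listed transcript. Such own sequence was measured here as 50-mers, all overlapping words of 50 bases. Of the 13 genes in which 40% or more of the 50-mers of coding transcripts were their own, 10 had reads. Of the 14 genes with under 10%, 6 had reads and only 2 had any read on a coding transcript. Itgb4, the beta subunit of hemidesmosomes, had 61 such 50-mers, or 0.172% of those in its 6 coding transcripts, and 0 reads in both libraries. Its 0 therefore gives no measure of its level.

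**Figure D1:**
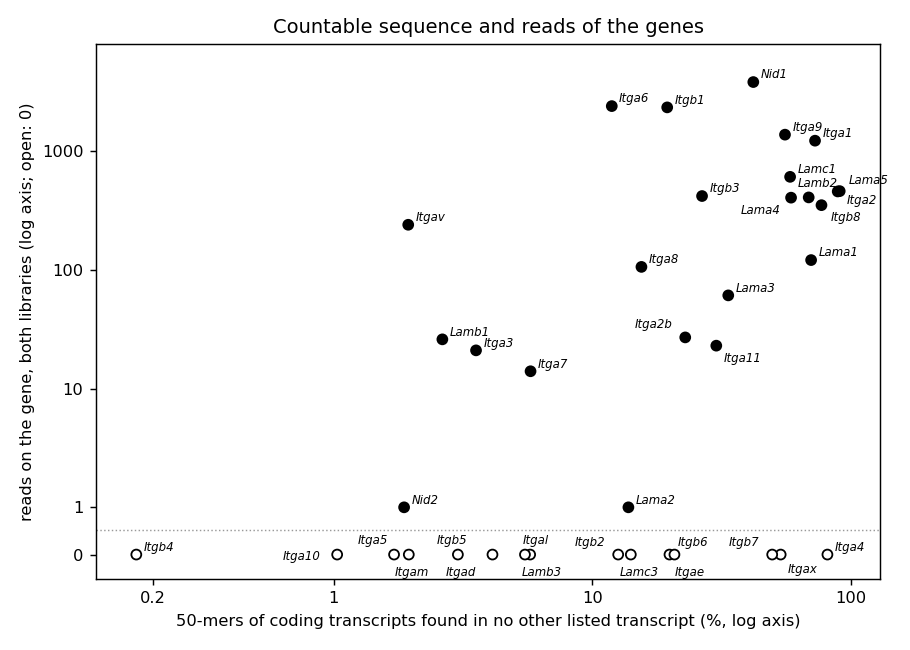
Each point is a gene reported here, with the percentage of 50-mers of its coding transcripts that occur in no other listed transcript on the x axis (log axis) and its reads over both libraries on the y axis (log axis, open circles at 0). Itgb4 lies at the far left with 0 reads, and Itga4, at 81.3%, is the gene with 0 reads that lies furthest right.

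Of the 39 genes, 24 had at least 1 read and 15 had none in either library. Reads fell on 17 genes in both libraries, on 2 in W1 alone (Lama2 and Nid2, 1 read each) and on 5 in W2 alone, among them Itgb8, Itga8 and Lama1. How all genes of the tables split in this way was not counted. The 39 genes received 9435 reads in W1 and 5545 in W2. A gene was compared when it reached 1 TPM in at least 1 library, and counted as higher in one library from a 2-fold difference on the scale of log2(TPM + 1), which understates the ratio of low genes. Of 21 genes compared, 8 were higher in W1, 6 were higher in W2 and 7 lay within 2-fold. Over all 12587 genes compared in the tables, 34.7% were higher in W1 and 32.9% in W2, so the counts of 8 and 6 of 21 lie near the background. The median log2 ratio was -0.04 over the 21 genes and -0.07 over all genes. By family, 6 of 12 integrins compared were higher in W1 and 4 in W2, while 5 of 8 laminin chains lay within 2-fold. With a pseudocount of 5 in place of 1, Itga1, Itga2b, Itga11, Lama1 and Lama4 no longer passed the rule. A requirement of 1 TPM in both libraries removes genes that lie under it in one. It left 11 genes of the set, of which 0 were higher in W2 and 6 in W1. Of all 6804 genes that met it, 1132 were higher in W1 and 1968 in W2. The median log2 ratio was then 1.02 over the genes of the set and -0.30 over all genes, so this setting departs from the background.

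**Figure D2:**
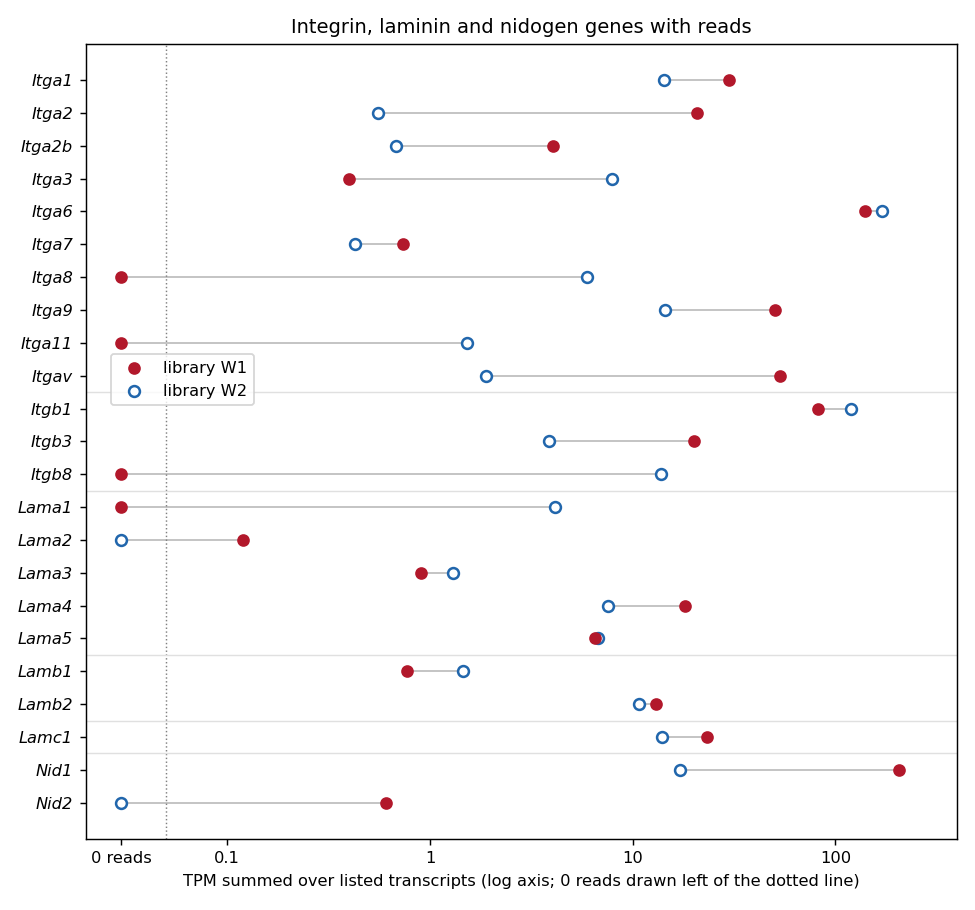
TPM of the genes with reads that are reported here, summed over listed transcripts (log axis), in W1 (filled) and W2 (open), with grey lines between integrin alpha, integrin beta, laminin alpha, beta and gamma, and nidogen genes. Nid1, Itgav and Itga2 lie furthest toward W1, while Itgb8, Itga8, Lama1 and Itga11 have no read there.

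The sums rest on different kinds of transcript in different genes, and 5 of the 24 genes with reads had none on a coding transcript, among them Itga3 and Itgav. The like count over all genes was not made. Coding transcripts held 80.1% of the reads of this set in W1 and 72.8% in W2. Over all genes with a coding transcript they held 94.9% and 97.5%. The transcripts below carry values that the results turn on, and are shown to make plain what was counted. They are read from the M21 transcripts on GRCm38. The first 2 stretches, of 60 bases each, lie in introns of the coding transcripts. Nid1-202 is a retained-intron transcript on the plus strand (chr13:13500988-13501047). Itgav-209 is a processed transcript, a spliced RNA with no reading frame assigned, on the plus strand (chr2:83739591-83739650). Of Itga6-203, a processed transcript on the plus strand, 30 bases are shown (chr2:71857555-71857584). They lie beyond 71856771, the last base of the coding transcripts of Itga6, where 1645 of the 2721 bases of this transcript lie. All letters are in lower case since none is marked.
Nid1-202: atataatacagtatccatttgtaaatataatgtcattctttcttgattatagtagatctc
Itgav-209: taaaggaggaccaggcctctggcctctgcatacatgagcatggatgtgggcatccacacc
Itga6-203: gggatagttttgaacttccgattcccctgc

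Among the laminin-binding integrins, the 2 subunits with the most reads, Itga6 and Itgb1, each differed by less than 2-fold between the libraries. Itga6, whose product pairs with that of Itgb1 or Itgb4, lies on chromosome 2 (71745616 to 71858416, plus strand, GRCm38). It stood at 140 TPM in W1 and 169.7 TPM in W2. Nearly all of this came from Itga6-203, with 924 and 1373 reads, which made up 92.3% (90.5 to 93.9) and 98.3% (97.5 to 98.9) of the gene's reads. This transcript was 1.48-fold higher in W2 (1.36 to 1.61). Itgb1, the common beta subunit of collagen, laminin and fibronectin receptors (chromosome 8, 128685654 to 128733200, plus strand), stood at 81.8 and 119.8 TPM. All of its reads, 945 and 1394, lay on the coding transcript Itgb1-201, and the ratio was 1.47-fold toward W2 (1.35 to 1.59). Both intervals exclude equal levels for counting error if each read is independent, and both values lie within the 2-fold rule. The coding transcripts of Itga6 held only 11 and 7 reads. The direction of the Itga6 sum is not settled, since the log2 ratio was -0.28 over all transcripts and 0.33 over coding ones.

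The other laminin receptor subunits had few reads or none. Itga3, whose product binds the laminin trimers of epithelia, had 1 read in W1 and 20 in W2 (0.4 and 7.94 TPM), a ratio of 19.8 with an interval from 3.18 to 823. All of these reads lay on Itga3-205, a retained-intron transcript. Itga7, a laminin receptor subunit of muscle, had 9 reads in W1 on a coding transcript and 5 in W2 on a retained-intron transcript, and stayed below 1 TPM in both.

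Collagen receptor subunits lay on both sides. Itga2, whose product pairs with that of Itgb1 to bind fibrillar collagen and some laminins, was the clearest (chromosome 13, 114833081 to 114932100, minus strand). It had 446 reads in W1 and 12 in W2, at 20.7 and 0.553 TPM, all on the coding transcript Itga2-201. The ratio was 37.4-fold toward W1 (21.2 to 73). Itga1, a subunit of a receptor for basement membrane collagen, stood at 29.95 and 14.3 TPM, a log2 ratio of 1.02 that just passed the rule. Its coding transcript was 1.41-fold higher in W1 (670 and 478 reads, 1.25 to 1.59), a log2 ratio of 0.47 for the coding transcript. The rest of its reads were on noncoding transcripts, 78 in W1 and 0 in W2. Itga11, a collagen receptor subunit of mesenchymal cells, had 0 reads in W1 and 23 in W2 (1.52 TPM), at least 7.61-fold higher with a floor of 3 reads for the library at 0. Fibroblast markers moved in the same direction as Itga11. Of 9, 2 had reads in W1 (3.19 TPM in sum) and 6 in W2 (206 TPM), with Col1a1, Dcn and Dpt at 0 in W1. Their part in the value of Itga11 was not tested. Itga10 had 0 reads in both, with 1.03% of its coding 50-mers its own.

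Among subunits of the receptors for vitronectin, fibronectin and latent TGF-beta, the beta subunit Itgb3 was higher in W1 and Itgb8 was higher in W2. Itgb3, the beta subunit of the vitronectin and platelet fibrinogen receptors (chromosome 11, 104608000 to 104670476, plus strand), had 351 reads in W1 and 68 in W2. At 20.03 and 3.85 TPM, all on its coding transcript, it was 5.2-fold higher in W1 (4 to 6.84). Itgav, its alpha partner (chromosome 2, 83724397 to 83806916, plus strand), stood at 53.1 and 1.89 TPM, from 230 and 10 reads, and thus lay on the same side as Itgb3. None of these reads lay on the 5 coding transcripts of Itgav. In W1 they fell on 2 retained-intron and 2 processed transcripts, and in W2 all 10 fell on the retained-intron transcript Itgav-203, which was 8.36-fold higher in W1 (4.32 to 18.1). Itgav-209 (68 and 0 reads) shares 634 exonic bases with Gm13684 on the other strand, which had 144 and 83 reads. Whether counting used strand was not stated, so reads of that pair cannot be told apart.

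Itgb8, another partner of the Itgav product and a known activator of TGF-beta, had the opposite distribution (chromosome 12, 119158022 to 119238802, minus strand). It had 0 reads in W1 and 351 in W2, at 13.8 TPM, which is at least 116-fold higher. Of those reads, 348 lay on its coding transcript, which has 6439 50-mers of its own. Itga8, whose product pairs with that of Itgb1 and binds nephronectin and fibronectin, also had 0 reads in W1. It had 106 in W2 (5.98 TPM), at least 35.1-fold higher. The Itga8 transcript shares 372 exonic bases with E030013I19Rik on the other strand, which had 0 and 25 reads. Itgb6 had 0 reads in both libraries although its coding transcripts have 2815 50-mers of their own, or 20.8%. For Itgb6-202, with 1921 of these, all after the coding part, the 0 is a low reading in each library. The levels of Itgb5 and Itga5 could not be read: their coding transcripts had 3.02% and 1.71% of 50-mers of their own and 0 reads in both libraries. Itga5 encodes the classical fibronectin receptor subunit.

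Itga9, whose product pairs with that of Itgb1, binds tenascin and Vcam1 and is needed for lymphatic valves, was 3.48-fold higher in W1 (3.07 to 3.97). It lies on chromosome 9 (118606690 to 118901003, plus strand) and had 1069 and 309 reads, at 50.3 and 14.4 TPM, all on its coding transcript. Lymphatic endothelial markers with reads numbered 7 of 7 in W1 (13139 TPM in sum) and 3 of 7 in W2 (8078 TPM). In W2, Lyve1, Prox1 and Flt4 were at 0. The chemokine gene Ccl21a made up most of the W2 sum, with 7543 TPM against 10177 TPM in W1. Of 6 compared, 3 were higher in W1, 1 in W2 and 2 lay within 2-fold. Reln was the one higher in W2, with 2 and 158 reads, and Pdpn stood at 438 and 531 TPM. The part of the lymphatic endothelial markers in the values of Itga9, Itga2, Itgb3 and Itgav was not tested, nor was that of the endothelial markers above. Itga2b, the platelet subunit that pairs with the Itgb3 product, had 25 reads in W1 and 2 in W2 (4.05 and 0.677 TPM). The ratio on reads was 12.6, with an interval from 3.14 to 109.6. Of 9 platelet markers, 2 had reads in W1, Pf4 and Gp9 with 1 read each, and 1 had reads in W2.

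The integrins of leukocytes were not seen in either library, and for some of them this is informative. Itga4, a subunit of the receptors for Vcam1 and Madcam1, had 0 reads in both libraries although 7901 50-mers, or 81.3% of its coding transcript, were its own, 18.3% of them in the coding part. A floor of 3 reads allows up to 0.101 TPM in each library. Its partner gene Itgb7 had 0 reads with 49.7% of its coding 50-mers its own, and Itgax, of dendritic cells and macrophages, had 0 with 53.6%. Floors of 3 reads on their longest coding transcripts allow 0.369 and 0.245 TPM in W1. These floors, and that of Itga4, take the full transcript length. Where reads fall on own sequence only, they allow higher levels. Itgal, Itgam, Itgad and Itgb2 also had 0 reads, but between 1.95% and 12.6% of their coding 50-mers were their own. Itgae had 19.9%. Leukocyte markers were not absent: 8 of 14 had reads in W1 (117 TPM in sum) and 2 of 14 in W2 (7.17 TPM), while Cd3e and Adgre1 were at 0 in both.

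Laminin alpha chains carry the sites that integrins bind, and Lama3, Lama4 and Lama5 were read in both libraries, while Lama1 was read in W2 alone. Lama5, the broadly expressed chain of mature basement membranes (chromosome 2, 180176373 to 180225859, minus strand), was nearly equal, with 226 and 235 reads, at 6.55 and 6.76 TPM. The ratio toward W1 was 0.968 (0.803 to 1.17). Of its coding 50-mers 90.7% were its own, so this value depends little on isoforms. Lama4, the chain typical of endothelium (chromosome 10, 38965515 to 39110188, plus strand), stood at 18.2 and 7.59 TPM and passed the rule with a log2 ratio of 1.16. Its coding transcript was 1.6-fold higher in W1 (223 and 140 reads, 1.29 to 2), below the rule, and the other 43 reads of W1 lay on retained-intron transcripts that had 0 in W2. Lama1, a chain of embryonic and some epithelial basement membranes (chromosome 17, 67697259 to 67822647, plus strand), had 0 reads in W1 and 121 in W2. At 4.16 TPM it was at least 40.1-fold higher there. Its coding transcript has 6660 50-mers of its own, 97.6% of them starting in the coding part.

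Lama3, the alpha chain of the epithelial anchoring laminin (chromosome 18, 12333819 to 12583013, plus strand), was low, at 0.907 and 1.3 TPM from 29 and 32 reads. The libraries differed in which of its 2 coding transcripts was read. The long transcript Lama3-201 had 29 and 21 reads. The short transcript Lama3-202 had 0 reads of 29 in W1, which by its interval allows up to 11.9%, and 11 of 32 in W2, or 34.4% (18.6 to 53.2). Lama3-202 has 192 50-mers of its own and shares 197 exonic bases with Gm29200 on the other strand, which had 0 and 37 reads. Reads of the 2 genes cannot be told apart without strand. Lama2, the chain of muscle and nerve, had 1 read in W1 on a retained-intron transcript and none in W2.

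Among beta and gamma chains that are shared by most laminins, Lamb2 and Lamc1 differed by less than 2-fold. Lamb2 (chromosome 9, 108479736 to 108490530, plus strand) stood at 13.1 and 10.7 TPM, from 224 and 184 reads. Lamc1, the gamma chain of most trimers (chromosome 1, 153218922 to 153332786, minus strand), stood at 23.2 and 14 TPM, and its coding transcript was 1.36-fold higher in W1 (329 and 244 reads, 1.15 to 1.61). Lamb1 had 6 and 20 reads and stayed under 2 TPM, with 2.63% of its coding 50-mers its own. Its sum lay within 2-fold, while its coding transcript Lamb1-201 (5 and 15 reads) was 2.98-fold higher in W2 (1.03 to 10.5), and on reads scaled by the library total the log2 ratio was -1.07. Lamb3 and Lamc3 had 0 reads in both libraries, with 5.49% and 14.1% of coding 50-mers of their own.

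Within a library, levels of different laminin genes could be compared per own sequence for coding transcripts with 1000 or more own 50-mers, as reads per 1000 of these. In W1 Lama4 had 63.2 (55.2 to 72.1), Lama5 22 (19.2 to 25) and Lama3 5.59 (3.74 to 8.03), and Lama1 had 0 reads. In W2 the values were 39.7 (33.4 to 46.9) for Lama4, 22.8 (20.01 to 26) for Lama5, 18.2 (15.1 to 21.7) for Lama1 and 4.05 (2.51 to 6.19) for Lama3. Lama4 was thus above Lama5 in each library, and Lama3 was lowest among these chains where they were read. Lamb2 had 50.9 (44.4 to 58) and 41.8 (36 to 48.3), and Lamc1 63.4 (56.7 to 70.6) and 47 (41.3 to 53.3), which overlap the intervals of Lama4. This measure takes reads to fall evenly over own sequence, and the length of the reads was not stated.

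Nid1 had more reads than any other gene of the set in W1. Nidogen-1, its product, binds the laminin gamma chain and collagen IV. The gene (chromosome 13, 13437551 to 13512269, plus strand) stood at 206 TPM in W1 and 17.2 TPM in W2, from 3503 and 320 reads. Its coding transcript Nid1-201, with 3008 and 320 reads, was 9.46-fold higher in W1 (8.43 to 10.7). The retained-intron transcript Nid1-202, shown above, had 495 reads in W1, or 14.1% of the gene's reads (13 to 15.3), and 0 of 320 in W2, which allows up to 1.15%. The difference in Nid1 is thus present on its coding transcript, of whose own 50-mers 19.8% start in the coding part and 75.7% after it. It was accompanied by a difference in the share of reads on the retained-intron transcript. The laminin gamma chain gene Lamc1 differed far less than Nid1, as given above. Nid2 had 1 read in W1 on a retained-intron transcript, with 1.87% of its coding 50-mers its own.

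**Figure D3:**
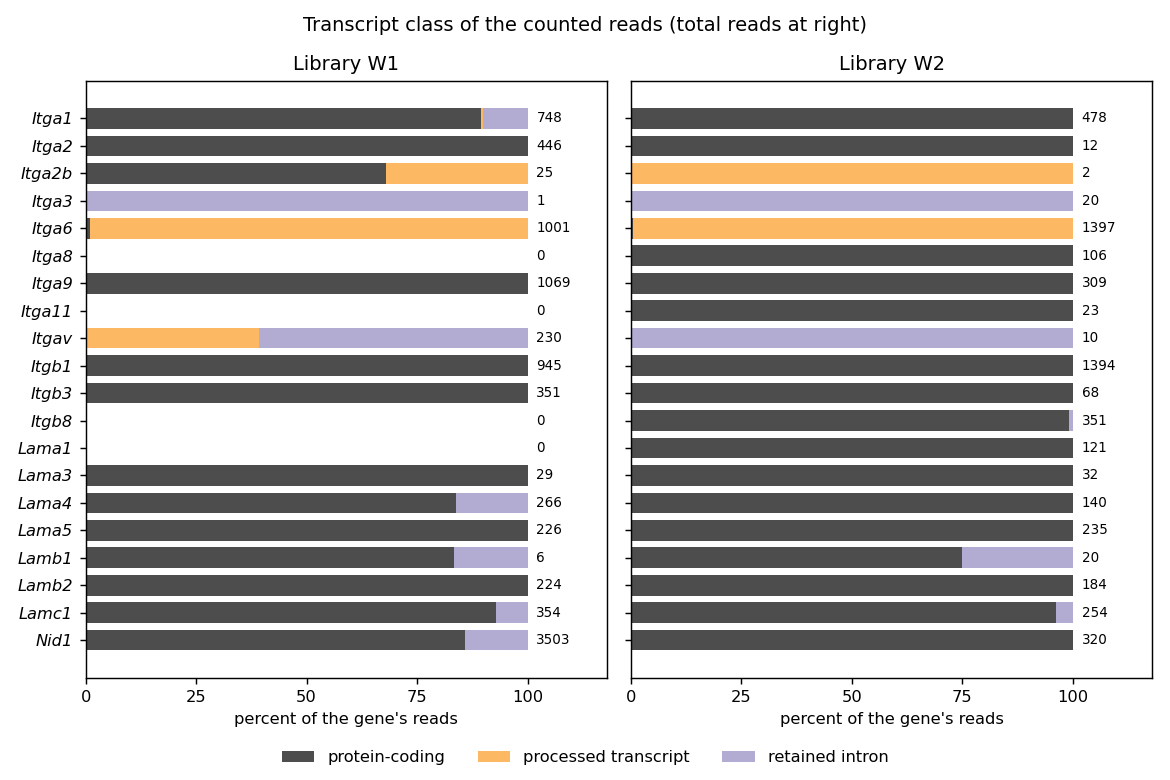
Bars give the percentage of each gene's reads on protein-coding, processed and retained-intron transcripts in W1 (left) and W2 (right) for the genes reported here with 20 or more reads in at least 1 library, with the gene's reads at the right of each bar. Itga3, Itga6 and Itgav rest wholly or almost wholly on noncoding transcripts in both libraries, and Nid1, Itga1 and Lama4 have a retained-intron share in W1 only.

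Retained-intron transcripts were read more often in W1 over these genes. They held 782 of 9435 reads, or 8.29% (7.74 to 8.86), in W1 and 117 of 5545, or 2.11% (1.75 to 2.52), in W2. The single transcript Nid1-202 gave 495 of the reads in W1, and without Nid1 the shares were 4.84% (4.31 to 5.42) and 2.24% (1.86 to 2.68). Of 19 such transcripts with reads, 12 were read in W1 alone, 4 in W2 alone and 3 in both. This split was not counted for all retained-intron transcripts. Over all listed transcripts of any class, more were above 0 in W1 (17529) than in W2 (13617). The share of reads on retained-intron transcripts lay in the same direction over all genes with a coding transcript, at 3.43% in W1 and 1.36% in W2. Processed transcripts held 11.6% of the reads of this set in W1 and 25.1% in W2, mostly on Itga6-203. Over all genes with a coding transcript they held 1.14% and 0.656%. With coding transcripts alone, the log2 ratios of Itga1, Lama4 and Nid1 were 0.47, 0.62 and 3.17, in place of 1.02, 1.16 and 3.51. The calls of Itga1 (0.74) and Lama4 (0.90) also ended with all transcripts kept, when the values were rescaled without mitochondrially encoded and ribosomal protein genes. On coding transcripts, 17 of the genes reached 1 TPM. Of these, 5 were higher in W1 (Nid1, Itga2, Itga9, Itgb3 and Itga2b) and 4 in W2 (Itgb8, Itga8, Lama1 and Itga11). Over all genes on the same basis, 28.5% of 7168 were higher in W1 and 34.2% in W2.

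**Figure D4:**
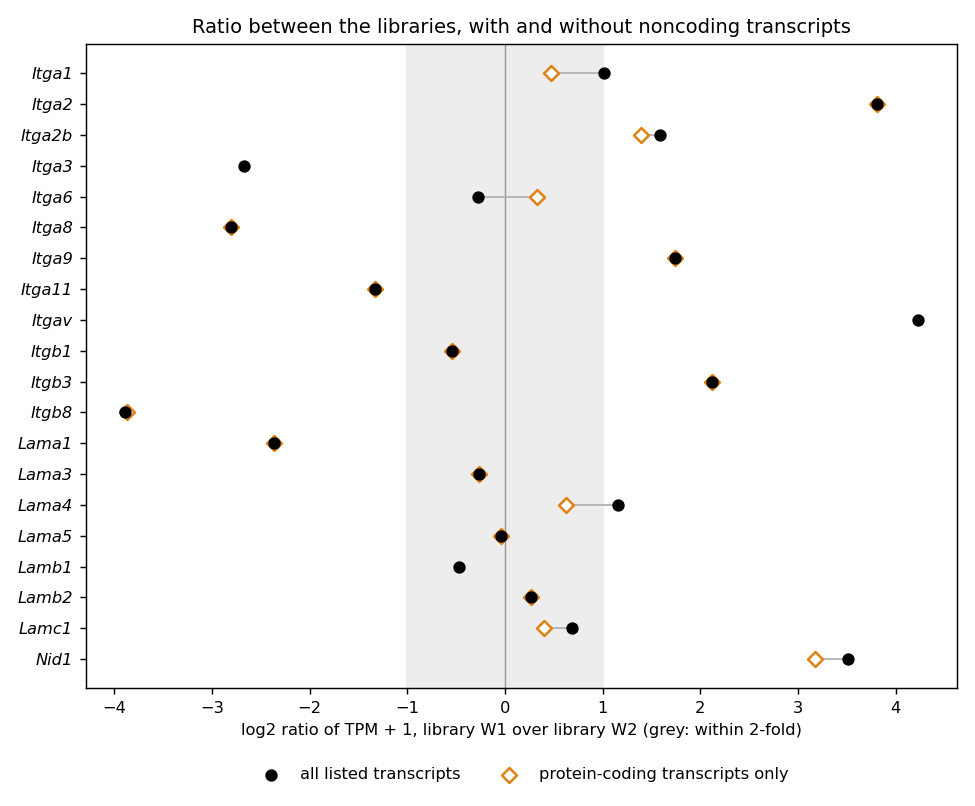
Log2 ratio of TPM + 1, W1 over W2, for the same genes, over all listed transcripts (black) and over coding transcripts (diamonds, drawn where they reached 1 TPM in a library), with the zone within 2-fold in grey. Itga1 and Lama4 move into that zone on coding transcripts, and Itga3, Itgav and Lamb1 have no diamond.

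Setting integrin pairs beside the laminin chains they are known to bind gave values for some pairs and too few reads for others. The pair of Itga6 and Itgb1 was read in both libraries, with log2 ratios of -0.28 and -0.55. The Itga6 value rests almost wholly on the noncoding transcript Itga6-203. On its coding transcripts, with 11 and 7 reads, the log2 ratio was 0.33. Among the chains of the trimers that this pair binds, Lama5 (-0.04), Lamc1 (0.68) and Lamb1 (-0.48) lay within 2-fold, and Lama4 (1.16, or 0.62 on coding transcripts) was the one near the limit. Lama1, also a ligand chain of the pair, was read in W2 alone (-2.37), although both receptor genes were read in both libraries. Among chains of epithelial laminin, Lama3 was low in both libraries (-0.27) and Lamb3 had 0 reads. Of the receptor subunits for these laminins, Itgb1 was read well on a coding transcript and Itga6 mostly on a noncoding one. Itgb4 had 0 reads and Itga3 had 21 in all. Lamb3, Itgb4 and Itga3 each had under 10% of coding 50-mers of their own. Their low counts are therefore no match of ligand and receptor levels. For the muscle pair of Itga7 and Itgb1, the ligand chain gene Lama2 had 1 read in all. Receptor and ligand genes thus matched in being read in both libraries for Itga6 and Itgb1 with Lama5 and Lamc1, a match of presence and not of amount. For Itga6 this presence is almost wholly that of a noncoding transcript.

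Other genes of the basement membrane and of integrin function were taken as lists, and each count is set against the background of 34.7% toward W1 and 32.9% toward W2. Of 12 other laminin receptors and partners of laminin-binding integrins, 9 were compared, 8 were higher in W2 and 0 in W1 (median log2 ratio -2.15). Sdc4, a syndecan that acts with integrins, stood at 51.7 and 2502 TPM. The tetraspanin gene Cd9 stood at 125 and 2311 TPM. Dag1, dystroglycan, was 6.09-fold higher in W2 (5.2 to 7.16), at 10.6 and 64.6 TPM. Basal and most luminal epithelial markers lay in the same direction, the latter with 284 TPM in sum in W1 and 4887 TPM in W2. Of 9 luminal markers compared, 7 were higher in W2, 1 lay within 2-fold and 1, Kit, was higher in W1 (67 and 0 reads). The part of the basal and luminal markers was not tested. The hemidesmosome list gave 2 of 3 compared genes higher in W2, Krt14 and Krt5, which encode keratins that attach to hemidesmosomes. Dst, a linker of keratins to integrins, lay within 2-fold at 9.61 and 10.9 TPM summed over transcripts, but had 79 and 302 reads. On coding transcripts only, and on the transcript with the most reads, 3 of 3 genes of this list were higher in W2.

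Of 33 cytoplasmic adhesion genes, 26 were compared, 13 were higher in W1 and 4 in W2 (median 1.03). On coding transcripts only, 6 of 20 were higher in W1, which is near the background of 28.5% on that basis. Itgb1bp1, an inhibitor of integrin activation, and Parvb, a partner of integrin-linked kinase, had 152 and 261 reads in W1 and 0 in W2. Kank1, which binds talin, was 44-fold higher in W1 (20.6 to 108). Tns4 (450 reads), Fermt1 (23 reads), an epithelial kindlin, and Actn1 (42 TPM) were the leading genes of W2, and the first 2 had 0 reads in W1. Actn1 stood at 11.8 TPM in W1.

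Ligands other than laminins were divided. Of 26 genes, 17 were compared, 6 were higher in W1 and 9 in W2 (median -1.69). On coding transcripts only, 4 of 15 were higher in W1 and 9 in W2, beside a background of 28.5% and 34.2% on that basis. Madcam1, a ligand of the integrin formed from Itga4 and Itgb7, stood at 73.8 and 11.6 TPM, a 6.34-fold difference (4.7 to 8.69), and Icam2, a ligand of leukocyte integrins, had 368 and 0 reads. Postn had 70 and 0 reads. Cdh1, E-cadherin and a ligand of the Itgae product, had 0 and 629 reads, Col1a1 had 0 and 604, and Fgg, a fibrinogen chain, had 0 and 120. Of 20 other basement membrane genes only 7 were compared, 2 toward each library. Col4a6 was 43-fold higher in W2 (28 to 69.9), at 1.04 and 44.9 TPM, and Fbln1 had 0 and 238 reads. The collagen IV genes Col4a1 and Col4a2 stood at 14.3 and 6.02 TPM, and at 137 and 70.3 TPM, close to 2-fold. Pxdn had 25 and 0 reads, and Col4a3 had 0 and 25 at under 1 TPM.

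**Figure D5:**
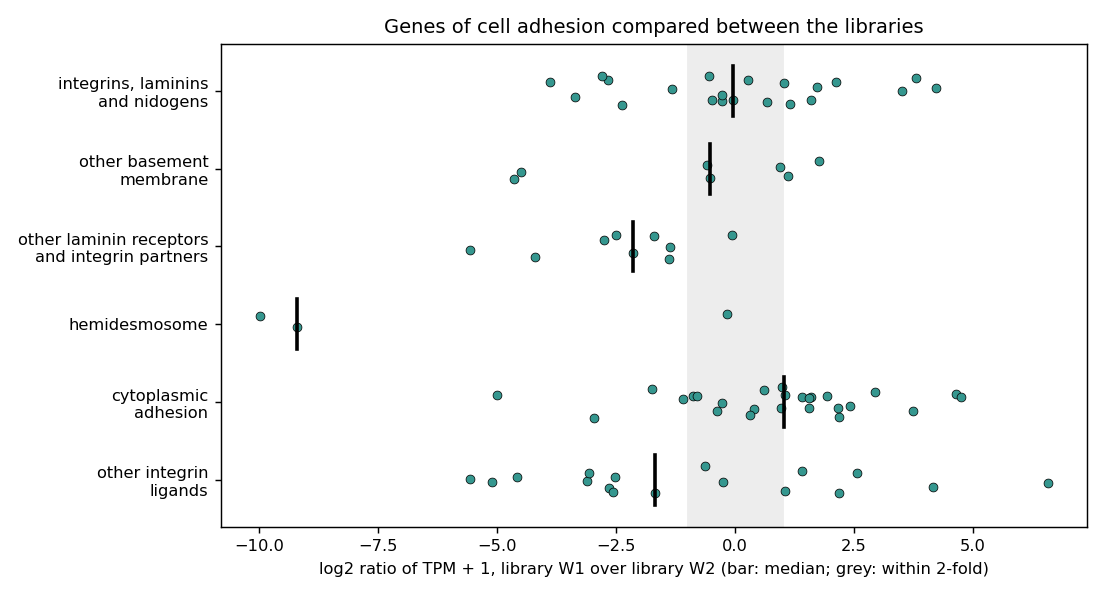
Each point is a gene of the named list that reached 1 TPM in at least 1 library, at its log2 ratio of TPM + 1, W1 over W2, with a bar at the list's median and the zone within 2-fold in grey. The 21 integrin, laminin and nidogen genes spread to both sides of a median of -0.04, and the list of other laminin receptors and partners lies almost wholly toward W2.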

How the data were processed

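RNA of 2 libraries was profiled; labels give 8 weeks as the age. The labels name a Smart-seq reagent and a stranded KAPA kit. Bowtie 0.12.2 stands in the submitters' processing notes, per which mm8 and GRCm38 are genome builds of unstated role; counting tool, annotation, read length, strand setting: not given in the sources used here. Both FPKM (reads scaled by transcript length and library total) and TPM (the same scaled to a common sum) were deposited by the authors for 137767 transcripts. Of these, 137654 matched GENCODE M21 by identifier and were summed per gene. In each library, FPKM multiplied by length moves in equal steps, taken as 1 read. Within 0.1 read, 98.47% and 98.05% of transcripts above 0 in W1 and W2 came out whole. These reads gave Clopper-Pearson intervals, Poisson intervals for reads per own sequence, and a floor of 3 reads where a library had 0. The steps were tested on simulated data. Members and lists were chosen with earlier results of these data known. Named list genes are the 3 with the largest ratio each way and 20 or more reads. The list entries Cyr61 and Ctgf were matched as Ccn1 and Ccn2. Tools were pandas 2.3.3, scipy 1.17.1, matplotlib 3.10.9 and numpy 2.4.6 under Python 3.11.15. In all, 12 alternatives were run, of which 2 (coding transcripts, and no retained introns) were chosen after seeing the data. One member is included in the counts but is not reported here.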

Additional observations from a re-analysis of the deposited data

How the results depend on the processing

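Of the 21 genes with 20 or more reads, 15 kept their call under each of the 12 alternatives in which they were compared, and no call reversed. Itga1, Itga11, Itga2b, Lama1, Lama4 and Lamb1 changed call under at least 1. For Itga1 and Lama4, the call ended without noncoding transcripts, with a pseudocount of 5, with the transcript with the most reads and after rescaling without mitochondrially encoded and ribosomal protein genes (0.74 and 0.90), and that of Itga1 also with reads scaled by the library total (0.96). Toward W1, 8 members were higher, and 5 with a pseudocount of 5 or with coding transcripts only. Toward W2, 6 were higher, and 0 where 1 TPM was required in both libraries, since that filter removes genes under 1 TPM in one. Under the same filter 6 of 11 members were higher in W1. With a pseudocount of 5, 2112 genes of all were higher in W1 and 2509 in W2, against 4370 and 4142. With 1 TPM in both libraries these were 1132 and 1968, with coding transcripts only 2043 and 2454, and with 20 or more reads 2664 were higher in W1.

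For the other lists, requiring 1 TPM in both libraries gave 1 and 1 for basement membrane genes (2 and 2 otherwise), 5 toward W2 for other laminin receptors and partners, 0 toward W2 for hemidesmosome genes, 4 and 1 for cytoplasmic adhesion genes and 2 and 3 for other ligands. A pseudocount of 5 gave 0 basement membrane genes and 7 cytoplasmic adhesion genes toward W1. Basement membrane genes toward W1 numbered 1 after rescaling without mitochondrially encoded and ribosomal protein genes, 1 with the transcript with the most reads, 4 with reads scaled by the library total, 0 with coding transcripts only and 0 without retained introns. Cytoplasmic adhesion genes toward W1 numbered 6 of 20 with coding transcripts only. With 20 or more reads, 5 other laminin receptors and partners were higher in W2. Causes other than the smaller number of genes compared were not tested. That rescaling moved the median log2 ratio of all genes from -0.07 to -0.31 and that of the members from -0.04 to -0.31, FPKM moved the median of all genes to 0.23, and reads scaled by the library total moved it to 0.26. No paired analysis was possible because there is 1 library of each title. Leaving out a library was not possible for the same reason.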
